A study of Homo sapiens with 20 samples.

Results

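A set of 40 human genes of the interferon response and of the sensing of double-stranded RNA was followed across 14 RNA-seq samples in which Dicer, Ago2 or Drosha had been targeted. The 40 genes were taken by name, and each symbol matched exactly 1 of the 57087 genes for which estimated counts could be summed over transcripts. By role, 11 are sensors of double-stranded RNA with their adaptor MAVS and the editor ADAR, 5 are transcription factors and 17 are antiviral effectors. The other 7 form a mixed role, called the ISG15 group here: ISG15, HERC5, USP18, TRIM25, PARP9, DTX3L and XAF1. Not all of them belong to the ISG15 pathway. The question was whether any of these genes rose when Dicer or Ago2 was depleted or when a plasmid against Drosha was transfected.

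HEK293T is a human embryonic kidney line that carries the SV40 large T antigen, and all groups derive from HEK293. The mRNA-seq set held 3 wt HEK293T samples and 3 samples of the shDicer line, labelled HEK293 2B, and both groups had received 3 µg/ml doxycycline for 7 days. The chrRNA-seq set, which sequences RNA bound to chromatin, held 2 wt, 2 shDicer, 2 shAgo2 and 2 DroshaKD samples, all labelled HEK293. The shDicer and shAgo2 lines express a short hairpin RNA from an integrated doxycycline-inducible cassette and had received 3 µg/ml doxycycline for 72 h before chromatin was isolated, whereas DroshaKD cells were transfected with a hairpin plasmid. For wt and DroshaKD chromatin the labels give no doxycycline. The methods describe the inducible lines as recombinant HEK293T-REx lines and also list an shDicer clone whose cassette encodes TAP-tagged Dicer, without saying which of these was sequenced. No scrambled hairpin or mock transfection is among the samples analysed here. Knockdown and recombinant line therefore cannot be told apart, nor can transfection in DroshaKD or, by the labels, doxycycline in shDicer and shAgo2 chromatin. Nothing in the labels says that replicates were separate cultures, so the p-values measure the spread between these samples, which may be technical.

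Long double-stranded RNA is a product of viral replication, and the cytoplasmic helicases RIG-I (encoded by RIGI) and MDA5 (IFIH1) detect it and signal through MAVS to the transcription factors IRF3 and IRF7, while TLR3 detects it in endosomes. The type I interferons that follow act through a receptor on the same or neighbouring cells, where a complex containing STAT2 and IRF9 binds the interferon-stimulated response element and switches on many genes, among them the sensors themselves. Dicer also cleaves double-stranded RNA, and ADAR edits it so that it is less readily sensed. HEK293 cells are known to lack most Toll-like receptors.

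The response element is shown first because its letters recur in the promoters of members from 3 of the 4 roles. It was searched as GAAANNGAAA on both strands of RefSeq promoter sequences (GRCh38.p14, from 250 bases before the gene start to 50 after it), of which 31 of the 40 members have an entry. The letters occurred in 18 of these 31 members (58.1%) and in 1255 of all 35116 promoters (3.57%). They were present in 11 of 14 antiviral effectors, 4 of 8 sensors, 3 of 6 genes of the ISG15 group and 0 of 3 transcription factors. A match is a description of the letters and not evidence of binding. The windows below come from 9 members whose levels the results turn on and from IFIT1, an archetypal interferon-stimulated gene that was not called in any comparison. Each is printed on the strand of its gene with the match in capitals, and a match read on the opposite strand appears as its complement, TTTCNNTTTC.
TLR3 (chr4:186069142-186069171, plus strand): caagctttacTTTCACTTTCgagagtgccg
IFIH1 (chr2:162318686-162318715, minus strand): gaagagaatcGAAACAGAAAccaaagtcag
EIF2AK2 (chr2:37156967-37156996, minus strand): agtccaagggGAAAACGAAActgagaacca
MX1 (chr21:41420559-41420588, plus strand): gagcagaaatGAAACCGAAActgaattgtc
IFI6 (chr1:27672288-27672317, minus strand): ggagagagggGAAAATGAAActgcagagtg
IFI44L (chr1:78620365-78620394, plus strand): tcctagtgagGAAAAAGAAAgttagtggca
IFITM1 (chr11:314024-314053, plus strand): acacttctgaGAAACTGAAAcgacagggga
DTX3L (chr3:122564322-122564351, plus strand): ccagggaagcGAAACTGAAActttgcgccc
HERC5 (chr4:88457035-88457064, plus strand): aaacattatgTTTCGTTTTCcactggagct
IFIT1 (chr10:89392510-89392539, plus strand): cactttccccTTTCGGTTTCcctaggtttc

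Only 1 match is printed for each gene, while IFITM1, IFI44L and IFIT1 held 2 and IFIH1, IFI6 and HERC5 held 3. The printed matches in TLR3, EIF2AK2, IFITM1 and DTX3L began within 6 bases of the annotated start. That of MX1 began 11 bases after it. Of the 11 members that rose in mRNA-seq of shDicer cells and have an entry, 8 held the letters, as did 10 of the 20 other members with an entry. RIGI, PARP9 and MAVS rose with no match in their windows. DTX3L and PARP9 are neighbours on opposite strands whose annotated 5′ ends overlap, and the match lies in the window of DTX3L.

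Total estimated counts ran from 10216430 to 17215978 in mRNA-seq and from 17484067 to 21553760 in chrRNA-seq, so that 3 counts correspond to 0.174 to 0.294 and 0.139 to 0.172 CPM (counts per 1000000), respectively. Levels below these values were treated as not detectable at this depth. CPM here are scaled by TMM factors, and in bulk samples a change in the share of cells cannot be told apart from a change in RNA per cell. DICER1 fell in mRNA-seq of shDicer cells from 231.5 to 257.3 CPM in wt to 80.6 to 94.4 CPM (log2 fold change −1.49), but was not called in chrRNA-seq of shDicer cells (−0.18). In shAgo2 chromatin DICER1 was called higher than in wt, by 0.35 to 0.82 on the log2 scale across the alternative fits. AGO2 was at 239.8 and 255.0 CPM in wt and 162.5 and 159.6 CPM in shAgo2 chromatin (−0.62). DROSHA did not fall in the chromatin RNA of DroshaKD cells (0.07). The paper shows knockdown of Dicer, Drosha and Ago2 by western blot and measured their steady-state transcripts by qRT-PCR in samples used for chrRNA-seq. Of 15 blood and immune cell markers, 9 had no count in any wt mRNA-seq sample and the summed level of all 15 was at most 1.54 CPM in mRNA-seq and 30.2 to 41.4 CPM in chrRNA-seq. Of 13 markers of HEK293, PAX8 had no count in any mRNA-seq sample, 5 rose and 1 fell with shDicer there, 7 rose and 2 fell with shDicer in chrRNA-seq, and 4 rose and 3 fell with shAgo2. The shares that rose were 38.5%, 53.8% and 30.8%, beside 15.6%, 11.0% and 12.5% of all genes tested. The neurofilament genes NEFL and NEFM moved in opposite directions in all 3 comparisons, by 4.77 and −3.94 on the log2 scale in mRNA-seq. The part of these line differences in the results on the 40 genes was not tested.

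In mRNA-seq, 12 of the 40 members (30.0%) were higher in shDicer than in wt cells at an adjusted p under 0.001 and 1 was lower, whereas 15.6% of the 15090 genes tested were higher and 14.2% lower. The test was edgeR's quasi-likelihood test with Benjamini-Hochberg adjustment over all genes tested. Only 28 members passed the filter on low counts, with a median log2 fold change of 0.67 beside 0.01 for all genes tested. The share of 30.0% is out of all 40 members and counts the 12 not tested as not called. The rise covered 4 of 11 sensors, 4 of 17 effectors, 4 of 7 genes of the ISG15 group and 0 of 5 transcription factors. Those of the ISG15 group were HERC5, USP18, PARP9 and DTX3L, while ISG15 was not tested. The share of members called lower, 2.5%, was the count of a single gene, SAMHD1, whose call was lost without wt replicate 2 and without wt replicate 3. The map of changes by role places all 40 members side by side.

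**Figure D1:**
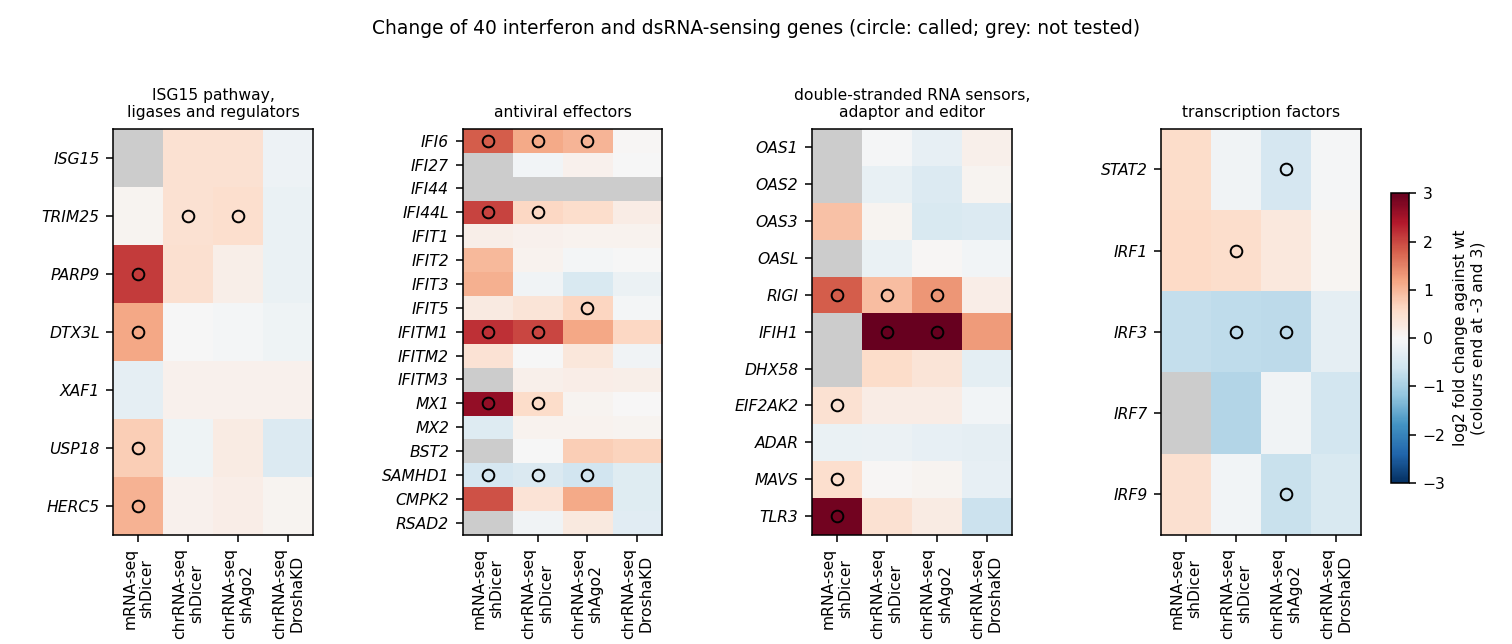
Log2 fold change against wt (colour, ending at −3 and 3) of the 40 members in 4 comparisons, by role, with circles for calls and grey for genes not tested. Circles are most frequent in the mRNA-seq column, with 12 members higher, and absent from the DroshaKD column.

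Among the sensors, TLR3 had the largest change of all members tested in mRNA-seq. Its levels were 1.13, 1.16 and 0.92 CPM in wt and 7.37, 8.10 and 8.88 CPM in shDicer samples. The groups were far apart and the fitted rise was 7.49-fold (log2 fold change 2.90, SE 0.21, adjusted p = 9.93e-07). RIGI, the helicase that recognises short blunt or triphosphorylated double-stranded ends, stood at 3.81, 5.6 and 4.5 CPM in wt and at 14.1, 15.5 and 19.1 CPM in shDicer, a 3.51-fold rise without overlap (log2 fold change 1.81, SE 0.18, adjusted p = 1.12e-05). Of the 31-base subsequences of RIGI, 45.7% also occur in another annotated gene, mostly in a readthrough locus that contributes no transcript to these files. PKR (EIF2AK2), the kinase that halts translation when it binds double-stranded RNA, was already high in wt, at 75.2, 83.6 and 80.7 CPM. It reached 99.8, 114.1 and 115.7 CPM in shDicer (log2 fold change 0.46, SE 0.08, adjusted p = 6.01e-04). MAVS, the adaptor on mitochondria, changed by 0.50 on the log2 scale (SE 0.08, adjusted p = 4.79e-04). The call of EIF2AK2 was lost without any single sample other than shDicer replicate 1, and that of MAVS without any single wt sample or shDicer replicate 3, with adjusted p-values of up to 0.00398 and 0.00469. EIF2AK2 also missed the threshold with scaling by library size, counts scaled from TPM by length, unmatched transcripts kept and protein-coding transcripts alone (adjusted p of 0.00126, 0.0125, 0.00181 and 0.00186), and MAVS with unmatched transcripts kept, protein-coding transcripts alone and changes relative to neighbouring genes (0.00111, 0.00132 and 0.00757).

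IFIH1 was too low for the filter in mRNA-seq. It had 1 count in the 3 wt samples together and 31 in the 3 shDicer samples (0.47, 1.06 and 0.66 CPM), a ratio of 24.2 with a 95% interval of 4.03 to 985.5 that covers counting error only. No wt sample reached the level of 3 counts and every shDicer sample exceeded it. The third RIG-I-like protein, LGP2 (DHX58), was at 0.24 to 0.36 CPM in wt and 0.38 to 0.78 CPM in shDicer, and OAS1 and OAS2, which with OAS3 make the activator of RNase L, and their relative OASL were at most 0.39 CPM in every sample. OAS3 stood at 4.78, 3.91 and 3.28 CPM in wt and at 6.58, 6.73 and 8.94 CPM in shDicer, without overlap, but missed the threshold (log2 fold change 0.89, adjusted p = 0.00308).

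ADAR was the most abundant member in wt mRNA-seq by TPM (transcripts per 1000000, which allow for length), at 29.1 to 32.9 TPM. Its gene level was 319.0, 314.3 and 316.8 CPM in wt and 262.2, 296.3 and 273.7 CPM in shDicer, lower without overlap but not called (log2 fold change −0.19, SE 0.07, adjusted p = 0.0342). The transcript that encodes the constitutive protein of 931 residues was at 21.4 ± 1.18 TPM in wt and 15.4 ± 2.10 TPM in shDicer (SD, n = 3 each). By contrast, the transcript for the protein of 1226 residues, which is the form known to be induced by interferon, was at 1.20 ± 0.86 and 1.27 ± 0.33 TPM. A further long transcript, for a protein of 1200 residues, was at 2.71 ± 0.94 TPM in wt and 2.13 ± 0.22 TPM in shDicer. The groups overlapped for the proteins of 1226 and 1200 residues and not for that of 931, and no transcript was tested.

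Of the 17 effectors, 4 were called higher, 1 was called lower, 7 were tested and not called, and 5 were not tested. The median log2 fold change of the 12 tested was 1.01, so a missed call does not show that a gene stayed level. MX1, a dynamin-like GTPase that blocks influenza and other viruses, went from 0.73, 0.71 and 0.31 CPM in wt to 3.76, 3.63 and 3.93 CPM in shDicer, a 6.26-fold rise (log2 fold change 2.65, SE 0.31, adjusted p = 3.23e-05). When transcripts annotated as protein coding were counted alone, MX1 was at 0.24, 0.09 and 0 CPM in wt and at 3.06, 3.33 and 3.28 CPM in shDicer. In wt cells 80% of the MX1 count belonged to transcripts with a retained intron. When counts were scaled from TPM by transcript length, the log2 fold change of MX1 shrank from 2.65 to 0.69 and it missed the threshold (adjusted p = 0.131).

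IFITM1, a membrane protein that hinders viral fusion, stood at 0.81, 0.89 and 1.23 CPM in wt and at 5.01, 3.63 and 4.71 CPM in shDicer (log2 fold change 2.20, SE 0.27, adjusted p = 4.21e-05). It shares 37.8% of its 31-base subsequences with other genes, mainly IFITM3, so the division of reads between the paralogs is uncertain. IFITM2 was at 2.13 to 2.43 CPM in wt and 2.74 to 3.41 CPM in shDicer (log2 fold change 0.45, adjusted p = 0.108), and IFITM3 was too low to be tested. IFI44L, a feedback regulator of the response, was at 1.05, 1.51 and 1.13 CPM in wt and 3.45, 5.22 and 6.32 CPM in shDicer (log2 fold change 2.02, SE 0.29, adjusted p = 1.47e-04). Its call was lost without wt replicate 1 and without wt replicate 3, with an adjusted p of up to 0.00186, and when protein-coding transcripts alone were counted. IFI6, which acts at the endoplasmic reticulum against flaviviruses, was at 1.86, 2.76 and 2.66 CPM in wt and 9.48, 7.04 and 9.18 CPM in shDicer (log2 fold change 1.83, SE 0.21, adjusted p = 3.06e-05). It shares 19.3% of its 31-base subsequences with other genes, mainly LINC02574 (18.9%). For IFITM1, IFI44L and IFI6 every shDicer sample lay above every wt sample.

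The IFIT family, which binds foreign RNA ends, showed no call in mRNA-seq. IFIT1 was at 10.1, 10.1 and 11.9 CPM in wt and at 11.9, 11.5 and 12.8 CPM in shDicer, with overlapping groups (log2 fold change 0.17, adjusted p = 0.275). IFIT2 and IFIT3 were higher in every shDicer than in every wt sample, by 0.97 and 1.06 on the log2 scale, and missed the threshold (adjusted p = 0.0188 and 0.00843). IFIT5 was the highest of the family, at 72.4 to 79.6 CPM in wt and at least 80.1 CPM in shDicer (log2 fold change 0.26, adjusted p = 0.0295). CMPK2, a mitochondrial nucleotide kinase, differed by 1.91 on the log2 scale and missed the threshold (adjusted p = 0.00433).

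SAMHD1, a dNTPase that restricts retroviruses, was the only member called lower in mRNA-seq. Its levels were 106.8, 110.0 and 109.1 CPM in wt and 72.3, 78.6 and 80.1 CPM in shDicer, 70.9% of the wt level (log2 fold change −0.50, SE 0.07, adjusted p = 1.36e-04). MX2 and XAF1 stayed between 0.98 and 2.25 CPM in all 6 samples and were not called. Of the MX2 count, 96.8% in wt and 98.1% in shDicer belonged to retained-intron transcripts. IFI27, IFI44, BST2 and RSAD2 were at most 0.54 CPM in every mRNA-seq sample. IFI44 and BST2 had no count in any wt sample and 17 and 14 counts in shDicer, at least 1.51-fold and 1.25-fold higher when wt was set to 3 counts per library.

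In the ISG15 pathway, ISG15 itself, the ubiquitin-like modifier that is usually among the strongest induced genes, was not tested because of its low level. It was at 0.32, 0.53 and 0.21 CPM in wt and 2.66, 0.45 and 1.07 CPM in shDicer, and the groups overlapped. HERC5, the ligase that attaches ISG15, was well expressed and rose 2.05-fold from 38.1, 37.0 and 36.5 CPM to 68.0, 81.4 and 79.1 CPM (log2 fold change 1.03, SE 0.09, adjusted p = 4.33e-06). USP18, which removes ISG15 and dampens the interferon receptor, stood at 19.9, 20.7 and 23.7 CPM in wt and 37.5, 36.0 and 33.4 CPM in shDicer (log2 fold change 0.73, SE 0.11, adjusted p = 1.74e-04). Of the 31-base subsequences of USP18, 28.7% also occur in another gene, with 14.7% in its near-identical copy USP41. The USP18 call was lost without wt replicate 1, wt replicate 2 or shDicer replicate 2, with an adjusted p of up to 0.00204.

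PARP9 and DTX3L, partners in an ADP-ribosylating ubiquitin ligase complex, are transcribed from the same stretch of chromosome 3. PARP9 was at 4.70, 5.96 and 6.35 CPM in wt and at 20.5, 28 and 24.3 CPM in shDicer, a 4.30-fold rise (log2 fold change 2.10, SE 0.16, adjusted p = 1.86e-06). DTX3L was at 13.1, 13.1 and 14.1 CPM in wt and at 24.4, 31.9 and 33.1 CPM in shDicer, a 2.22-fold rise (log2 fold change 1.15, SE 0.14, adjusted p = 3.54e-05). In neither gene did the groups overlap. The median change of the 50 genes nearest to this pair was −0.30. TRIM25, a ligase that activates RIG-I, was at 28.9 to 32.4 CPM in wt and 32.0 to 33.1 CPM in shDicer (log2 fold change 0.08, adjusted p = 0.507).

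No transcription factor was called in mRNA-seq in the test used throughout, and those nearest to the threshold went in different directions. IRF3 was at 21.2, 17.3 and 21.5 CPM in wt and 13.5, 10.4 and 12.5 CPM in shDicer (log2 fold change −0.72, SE 0.14, adjusted p = 0.00113). STAT2 was at 22.1, 23.1 and 27.9 CPM in wt and 34.0, 33.9 and 38.9 CPM in shDicer (log2 fold change 0.55, SE 0.12, adjusted p = 0.00221). Counted over protein-coding transcripts alone, STAT2 was called, from 3.56 to 4.91 CPM in wt to 9.42 to 17.0 CPM in shDicer (log2 fold change 1.58, adjusted p = 4.43e-04). IRF3 was called lower and STAT2 higher with DESeq2 (adjusted p = 1.95e-04 and 3.74e-04), with the replicate block (2.83e-04 and 6.83e-04) and with no filter on low counts (3.05e-05 and 7.07e-06). IRF1 was at 6.35 to 6.89 CPM in wt and 9.53 to 11.0 CPM in shDicer (log2 fold change 0.60, adjusted p = 0.00373). IRF7, the factor that amplifies interferon production, had 2 counts in the wt samples together and 15 in the shDicer samples.

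**Figure D2:**
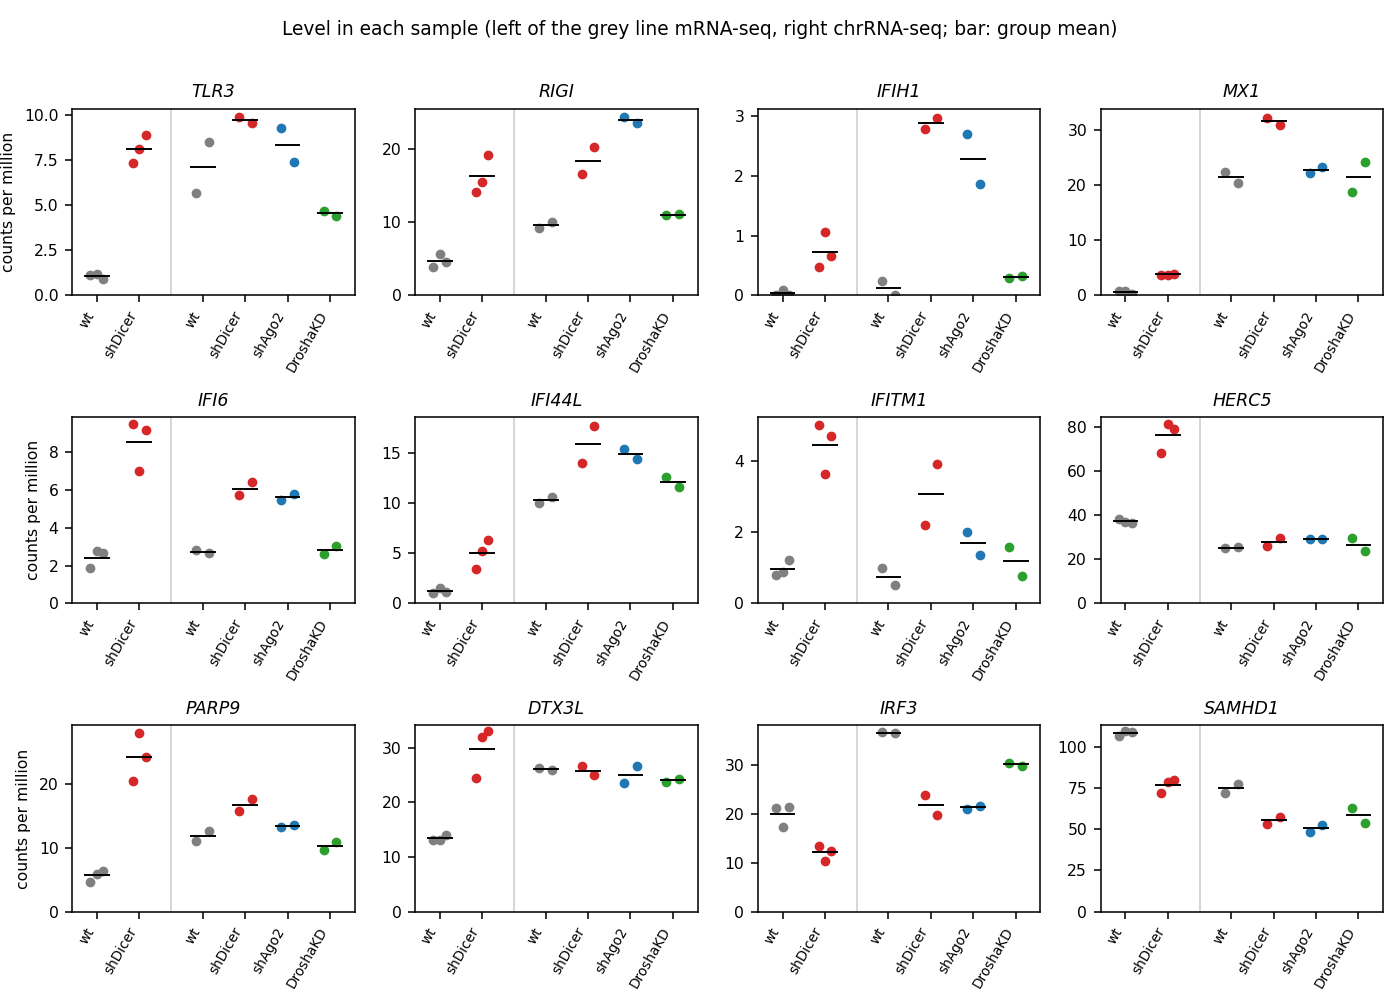
CPM of 12 members in each sample (points) with the group mean (bar), on linear axes that start at 0 and differ between panels. In mRNA-seq the shDicer points lie above the wt points in the first 10 panels and below them for IRF3 and SAMHD1.

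In chrRNA-seq, which reports RNA still on chromatin, 39 of the 40 members were tested. At an adjusted p under 0.005, 8 members (20%) were higher and 2 (5%) were lower in shDicer than in wt, beside 11.0% and 10.5% of the 32874 genes tested. The count of 8 fell to 4 without wt replicate 1, to 3 without wt replicate 2, to 4 without shDicer replicate 2 and to 5 without either shAgo2 replicate, and the count of 2 fell to 1 without any single wt, shDicer or shAgo2 replicate. In shAgo2 cells 5 members (12.5%) were higher and 4 (10%) were lower, beside 12.5% and 12.1% of all genes tested, so the share of members was near that of all genes. The count of 5 fell to 3 without wt replicate 1 or shAgo2 replicate 1 and to 2 without wt replicate 2 or shAgo2 replicate 2, and the count of 4 fell to 2 without wt replicate 2 or shAgo2 replicate 1. The median log2 fold change of the members tested was 0.11 with shDicer and 0.18 with shAgo2. Both knockdowns were compared with the same 2 wt samples.

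IFIH1 had the largest change on chromatin. It was at 0.24 and 0 CPM in wt, 2.79 and 2.97 CPM in shDicer, 2.7 and 1.86 CPM in shAgo2 and 0.29 and 0.33 CPM in DroshaKD. The wt samples held 4 counts together, which gives ratios to wt of 23.5 (95% interval 8.93 to 87.9, counting error only) in shDicer and 18.8 (7.10 to 70.6) in shAgo2. Its call held in every fit that left out a sample, in both knockdowns (adjusted p of 5.05e-05 and 1.01e-04 with all samples).

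RIGI was at 9.25 and 9.98 CPM in wt, 16.5 and 20.2 CPM in shDicer, 24.4 and 23.5 CPM in shAgo2 and 10.9 and 11.1 CPM in DroshaKD. The log2 fold changes were 0.93 (SE 0.12, adjusted p = 9.27e-05) with shDicer and 1.32 (SE 0.12, adjusted p = 4.46e-06) with shAgo2, and both calls held in all fits that left out a sample. TLR3, which rose most in mRNA-seq, was at 5.69 and 8.53 CPM in wt and 9.89 and 9.54 CPM in shDicer, and missed the threshold (log2 fold change 0.46, adjusted p = 0.0640). EIF2AK2 was at 94.6 and 91.3 CPM in wt, 106.8 and 108.9 CPM in shDicer and 112.8 and 104.7 CPM in shAgo2, and was not called in either (adjusted p = 0.0365 and 0.0264).

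Of the effectors, IFI6 was at 2.85 and 2.65 CPM in wt, 5.74 and 6.41 CPM in shDicer, 5.46 and 5.79 CPM in shAgo2 and 2.63 and 3.05 CPM in DroshaKD. It was called in both knockdown lines (log2 fold changes 1.14 and 1.03, adjusted p = 2.34e-04 and 4.60e-04), although without wt replicate 2 or shAgo2 replicate 2 the shAgo2 call was lost, with an adjusted p of up to 0.00697. IFITM1 was at 1.01 and 0.51 CPM in wt, 2.21 and 3.92 CPM in shDicer and 2.02 and 1.36 CPM in shAgo2, and was called in shDicer (log2 fold change 2.00, SE 0.44, adjusted p = 0.00341) and not in shAgo2 (adjusted p = 0.0734). IFI44L and MX1 were called in shDicer with 0.62 and 0.56 on the log2 scale (adjusted p = 0.00267 and 0.00256). The calls of IFITM1, IFI44L and MX1 were lost without wt replicate 1 or 2, shDicer replicate 2 or shAgo2 replicate 1 or 2, and that of MX1 also without shDicer replicate 1, with adjusted p-values of up to 0.0432. With counts scaled from TPM by length, IFITM1 on chromatin was at 0.45 on the log2 scale (adjusted p = 0.561) and MX1 at 0.17 (adjusted p = 0.312), and the mean TPM of IFITM1 was 9.41 in wt and 12.5 in shDicer. The call of IFITM1 was also lost with unmatched transcripts kept and with the replicate block (adjusted p = 0.0141 and 0.00665). Of 10 other settings of the fit that kept all samples of both groups, 7 kept the call of IFITM1, 6 that of MX1 and 5 that of IFI44L.

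MX1 on chromatin was at 22.4 and 20.4 CPM in wt and at 32.2 and 30.9 CPM in shDicer, and 93.8% of the wt count belonged to retained-intron transcripts. Its protein-coding transcripts alone were at 0.89 and 1.77 CPM in wt, 8.16 and 5.67 CPM in shDicer and 2.85 and 3.82 CPM in shAgo2. On that count the change with shDicer was 2.39 on the log2 scale (SE 0.31, adjusted p = 2.57e-04). Over all members, protein-coding transcripts held 93.8 to 95.3% of the count in mRNA-seq and 66.8 to 72.3% in chrRNA-seq, and retained-intron transcripts 2.03 to 2.68% and 18.2 to 21.5%.

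IFIT5 was called in shAgo2 (log2 fold change 0.65, adjusted p = 8.93e-04) and was at 0.39 with shDicer (adjusted p = 0.0225), the shAgo2 call being lost without any single wt or shAgo2 replicate. The remaining IFITs, MX2 and BST2 were at most 0.74 from 0 on the log2 scale in both lines. SAMHD1 fell in both, from 72.0 and 77.6 CPM in wt to 53.3 and 57.7 CPM in shDicer and 48.5 and 52.7 CPM in shAgo2 (log2 fold changes −0.43 and −0.57, adjusted p = 0.00279 and 3.93e-04). DroshaKD samples were at 62.7 and 54.1 CPM. The shDicer call was lost without any single wt, shDicer or shAgo2 replicate, with an adjusted p of up to 0.0372, and the shAgo2 call without wt replicate 2 or shAgo2 replicate 1. Of 10 other settings, 5 kept the shDicer call and 8 the shAgo2 call. SAMHD1 was also below its wt level when changes were taken relative to the 50 nearest genes, but was then not called in any comparison.

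TRIM25, the most abundant member on chromatin by TPM (69.9 to 71.9 in wt), was at 127.7 and 130.7 CPM in wt, 167.1 and 187.5 CPM in shDicer, 181.5 and 182.8 CPM in shAgo2 and 118.0 and 107.6 CPM in DroshaKD. It rose by 0.46 with shDicer and 0.50 with shAgo2 on the log2 scale (adjusted p = 8.98e-04 and 4.42e-04). Calls for both were lost when a wt replicate or a replicate of the knockdown was left out, except shDicer replicate 1, with an adjusted p of up to 0.0164. ADAR was at 281.7 and 302.0 CPM in wt and between 234.1 and 266.4 CPM in the 6 other chrRNA-seq samples, and was not called. PARP9 was at 11.1 and 12.6 CPM in wt and at 15.8 and 17.6 CPM in shDicer and just missed the threshold (log2 fold change 0.49, adjusted p = 0.00557). HERC5, DTX3L and USP18 were at most 0.24 from 0 on the log2 scale in both lines. ISG15 was at 3.14 and 3.03 CPM in wt, 5.21 and 3.34 CPM in shDicer and 4.43 and 4.09 CPM in shAgo2 and was not called.

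The other members were not called on chromatin with shDicer or shAgo2. OAS3 came nearest, at 32.4 and 35.9 CPM in wt, 33.4 and 38.9 CPM in shDicer and 23.8 and 26.2 CPM in shAgo2 (log2 fold change −0.45 in shAgo2, adjusted p = 0.00524), lower in shAgo2 without overlap. CMPK2 was at 0.77 and 0.95 CPM in wt and at 2.26 and 1.47 CPM in shAgo2 (log2 fold change 1.13, adjusted p = 0.0175), and IRF7 was 0.87 lower on the log2 scale in shDicer (adjusted p = 0.0294). MAVS was at 258.6 and 256.3 CPM in wt and at 255.3 to 276.3 CPM in the shDicer and shAgo2 samples. DHX58, IFI27, IFITM2, IFITM3, OAS1, OAS2, OASL, RSAD2 and XAF1 had log2 fold changes between −0.40 and 0.55. IFI44, the member not tested, was at most 0.26 CPM in any chrRNA-seq sample.

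Among the transcription factors, IRF3 fell on chromatin in both lines. It was at 36.8 and 36.5 CPM in wt, 23.8 and 19.7 CPM in shDicer, 21.1 and 21.6 CPM in shAgo2 and 30.5 and 29.9 CPM in DroshaKD. The log2 fold changes were −0.75 and −0.78 (adjusted p = 9.25e-05 and 6.16e-05). The 50 genes nearest to IRF3 also had medians of −0.47 and −0.49 in these comparisons, and relative to them IRF3 was not called. STAT2 was at 93.4 and 92.2 CPM in wt, 84.9 and 87.7 CPM in shDicer and 65.7 and 65.7 CPM in shAgo2 (log2 fold change −0.50 in shAgo2, adjusted p = 1.49e-04). Around STAT2 the neighbouring genes had a median of −0.41 in shAgo2, and relative to them it was not called. Protein-coding transcripts held 1.58% of the STAT2 count in wt chromatin, and on them alone STAT2 was not called in shAgo2 (adjusted p = 0.239). IRF9, its partner, fell in shAgo2 by 0.67 on the log2 scale (adjusted p = 0.00403), a call lost without any single wt or shAgo2 replicate and kept in 4 of 9 other settings. In wt chromatin 75.5% of the IRF9 count belonged to retained-intron transcripts and 0% to protein-coding ones, which could not be tested alone. Of the 31-base subsequences of IRF9, 26.6% also occur in another gene. IRF1 rose in shDicer from 46.5 and 43.7 CPM to 66.7 and 63.1 CPM (log2 fold change 0.53, adjusted p = 3.21e-04), where the neighbouring genes had a median of 0.36 and the call relative to them, or without wt replicate 2, was lost. The IRF1 call was also lost with counts scaled from TPM by length and with protein-coding transcripts alone (adjusted p = 0.00554 and 0.096).

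In DroshaKD cells 0 of the 40 members were called in either direction at an adjusted p under 0.05, beside 1.19% of all genes tested called higher and 2.18% called lower. At an unadjusted p under 0.05 there were 9 members, and DESeq2 also called 0. The members nearest to the threshold were lower, SAMHD1 by 0.36 and OAS3 by 0.42 on the log2 scale (adjusted p = 0.0557 and 0.0572). Without shDicer replicate 1 or 2, which enter the fit through the shared spread, 3 members were called lower, and without DroshaKD replicate 1 there was 1. DROSHA itself was not called lower in this chromatin RNA, while the paper reports its knockdown by western blot.

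The knockdowns were also compared directly, without wt. Between shDicer and DroshaKD, 9 members were higher in shDicer and 1 was lower at an adjusted p under 0.005, beside 11.0% and 9.51% of all genes. Between shAgo2 and DroshaKD, 9 were higher and 2 lower, beside 11.6% and 10.3%. RIGI (log2 differences 0.74 and 1.12), IFIH1 (3.20 and 2.88), IFI6 (1.09 and 0.98), TRIM25 (0.65 and 0.69) and TLR3 (1.10 and 0.88) were higher in both. IRF3 was lower in both (−0.48 and −0.50). The 2 comparisons share the DroshaKD samples. Against wt, TLR3 was not called in shDicer, shAgo2 or DroshaKD chromatin (log2 fold changes 0.46, 0.24 and −0.64). Its DroshaKD samples, at 4.68 and 4.41 CPM, lay below the 5.69 and 8.53 CPM of wt. Between shDicer and shAgo2, edgeR called 0 members at an adjusted p under 0.005 and 13 had an unadjusted p under 0.05, beside 1.37% and 1.34% of all genes called higher and lower. STAT2 was nearest to the threshold, 0.39 higher in shDicer (SE 0.07, adjusted p = 0.00501), followed by OAS3, 0.53 higher (SE 0.11, adjusted p = 0.00860).

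Whether the shDicer change was the same in both kinds of RNA was tested as the difference of the 2 log2 fold changes. At an adjusted p under 0.005, 7 members changed more in mRNA-seq and 0 changed more in chrRNA-seq, beside 3.82% and 1.21% of the 31106 genes in that test. TLR3 led with a difference of 2.53 (SE 0.31, adjusted p = 5.62e-05), followed by MX1 with 2.16, PARP9 with 1.69, DTX3L with 1.25, HERC5 with 0.97, USP18 with 0.94 and STAT2 with 0.73. IFI44L, RIGI, IFI6 and IFITM1, which were called in both assays, differed by 1.49, 0.96, 0.77 and 0.30 and not beyond the threshold (adjusted p = 0.00834, 0.0169, 0.116 and 0.890). IFI6, IFI44L, IFITM1, MX1 and RIGI were called higher in both assays, which is 5 of the 12 called in mRNA-seq and 5 of the 8 called in chrRNA-seq. The assays also differed in duration of doxycycline, library kit and the line that the labels name for wt (HEK293T in mRNA-seq and HEK293 in chrRNA-seq), which cannot be told apart from the kind of RNA.

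**Figure D3:**
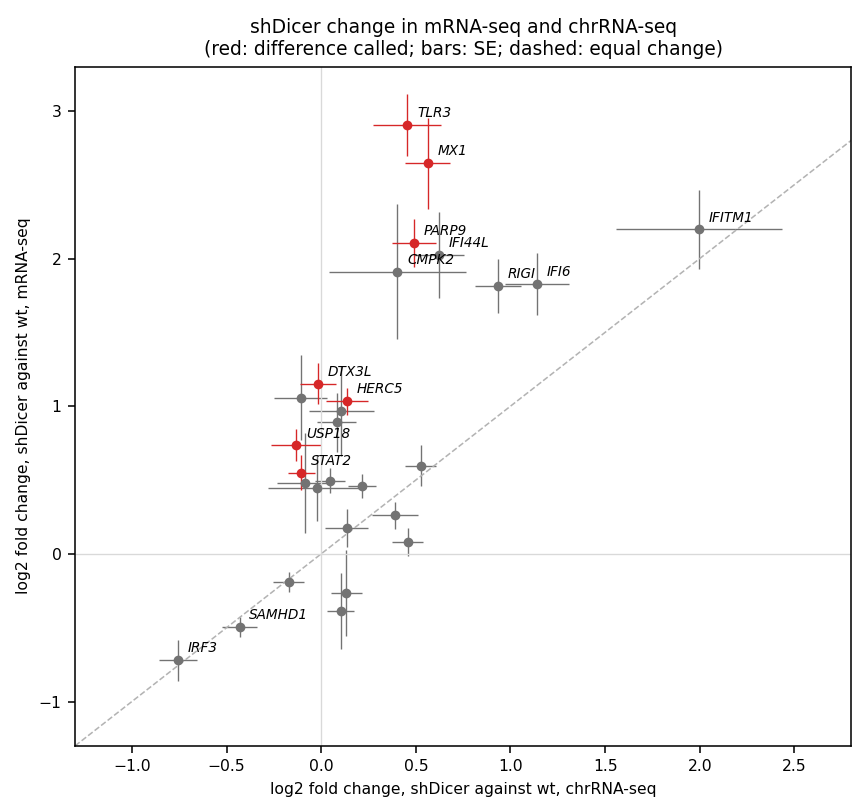
Log2 fold change of shDicer against wt in mRNA-seq (vertical) and chrRNA-seq (horizontal) for the 28 members tested in both, with SE bars and a dashed line of equal change. The 7 members whose difference was called (red), TLR3 and MX1 foremost, lie above the line.

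A further 5 gene lists place these changes in their pathway. Their counts stand beside 15.6% of all genes called higher and 14.2% called lower in mRNA-seq, 11.0% and 10.5% in chrRNA-seq with shDicer, 12.5% and 12.1% with shAgo2 and 1.19% and 2.18% with DroshaKD. Of 12 interferon genes, none had more than 3 counts in any mRNA-seq sample. The sum of all 12 was at most 0.23 CPM there, and IFNB1 had counts in a single wt sample. On chromatin, IFNK, an interferon of keratinocytes, was the only interferon called (4.37 CPM in wt and 8.86 CPM in shAgo2, log2 fold change 1.02, adjusted p = 3.20e-04). Of 16 interferon receptors and signal transducers, 3 were higher and 1 lower in mRNA-seq with shDicer, 1 and 3 in chrRNA-seq with shDicer, and 2 and 3 with shAgo2. The shares called higher, 18.8%, 6.25% and 12.5%, were near or below those of all genes. IFNLR1, the receptor for lambda interferons, was among the higher ones each time (log2 fold changes 1.47, 1.40 and 1.56). IFNGR1 fell in mRNA-seq (−0.79) and JAK1 fell on chromatin with shDicer (−0.63), while DroshaKD gave 1 call, STAT3 (−0.52).

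Of 22 adaptors and kinases downstream of the sensors, 3 were higher and 4 lower in mRNA-seq with shDicer, 6 and 7 in chrRNA-seq with shDicer, 6 and 6 with shAgo2 and 1 and 1 with DroshaKD. The share called higher was 13.6% in mRNA-seq, below that of all genes, and 27.3% with shDicer and with shAgo2 on chromatin, while the median log2 fold changes were −0.03, 0.02 and 0.05. STING1, the adaptor of cytoplasmic DNA sensing, was at 0.57 CPM in wt and 2.30 CPM in shDicer in mRNA-seq, and on chromatin at 2.96 CPM in wt, 16.6 CPM in shDicer and 18.5 CPM in shAgo2 (log2 fold changes 2.00, 2.48 and 2.64). IRF2 rose in mRNA-seq (1.82), and IRF5 from 6 counts in the wt samples to 127 in shDicer. TICAM1, the adaptor that TLR3 uses, rose on chromatin from 1.14 CPM to 3.80 CPM with shDicer and 4.57 CPM with shAgo2, and MYD88 rose by 1.23 and 1.62 on the log2 scale. NFKB1, a subunit of NF-κB, fell in mRNA-seq (−1.26) and on chromatin with shDicer (−0.81) and shAgo2 (−0.88), as did the ubiquitin ligase TRAF6 (−0.78, −0.77 and −0.58). The kinase gene IKBKE and IKBKG, which encodes the scaffold NEMO, fell on chromatin with shDicer (−0.53 and −0.75) and shAgo2 (−1.27 and −0.96). The 50 genes nearest to IKBKG had medians of −0.38 and −0.45 in these comparisons, and those nearest to IKBKE 0.18 and 0.17. In DroshaKD, TANK rose (0.50) and NLRX1 fell (−0.49).

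Other proteins that bind double-stranded RNA were called lower more often than higher. Of 20, 1 was higher and 5 lower in mRNA-seq with shDicer, 0 and 4 in chrRNA-seq with shDicer, and 1 and 6 with shAgo2. DDX60, a helicase linked to RIG-I, was the exception in both assays (log2 fold change 1.72 in mRNA-seq with shDicer and 1.02 with shAgo2). ILF2 and SON fell in mRNA-seq (−0.53 and −0.58), and SON and STAU2 on chromatin with shDicer (−0.51 and −0.40). ADARB1, the paralog of ADAR, and TARBP2, the partner of Dicer, fell in shAgo2 by 1.08 and 0.99 on the log2 scale. The 50 genes nearest to each had medians of −0.80 and −0.61 there, so much of each fall was shared with neighbouring genes.

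The list of 60 other interferon-stimulated genes held the largest changes, with 14 higher and 4 lower in mRNA-seq with shDicer, 13 and 4 in chrRNA-seq with shDicer, 12 and 7 with shAgo2 and 2 and 0 with DroshaKD. The shares called higher were 23.3%, 21.7%, 20% and 3.33%, above those of all genes, and the median log2 fold changes of those tested were 0.44, 0.11, 0.04 and 0.01. These shares are out of all 60, of which 42 were tested in mRNA-seq and 55 in chrRNA-seq. PARP14, a relative of PARP9 encoded beside it, had 10 counts in the 3 wt mRNA-seq samples and 2717 in shDicer, a ratio of 211.9 (95% interval 115.1 to 442.5, counting error only). PARP12 had 3 and 900 counts, a ratio of 234.0 (79.8 to 1136.8). On chromatin PARP12 was at 1.46 CPM in wt, 45.1 CPM in shDicer and 33.1 CPM in shAgo2, and LGALS3BP, a secreted glycoprotein, at 49.9 CPM in wt and 728.8 CPM in shDicer. TAP2, a peptide transporter of antigen presentation, went the other way, with 566 counts in wt and 2 in shDicer in mRNA-seq and 27.6, 0.74 and 0.47 CPM on chromatin in wt, shDicer and shAgo2. TAP2 lies in a region with alternate haplotypes whose transcripts could not be matched to a gene here. IFI16, a DNA sensor, had no count in wt on chromatin and rose at least 10.7-fold in shAgo2. In DroshaKD, UBA7, the enzyme that activates ISG15, rose from 2.43 to 6.50 CPM (log2 fold change 1.42, adjusted p = 0.00489) and GBP2 from 4 to 27 counts.

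**Figure D4:**
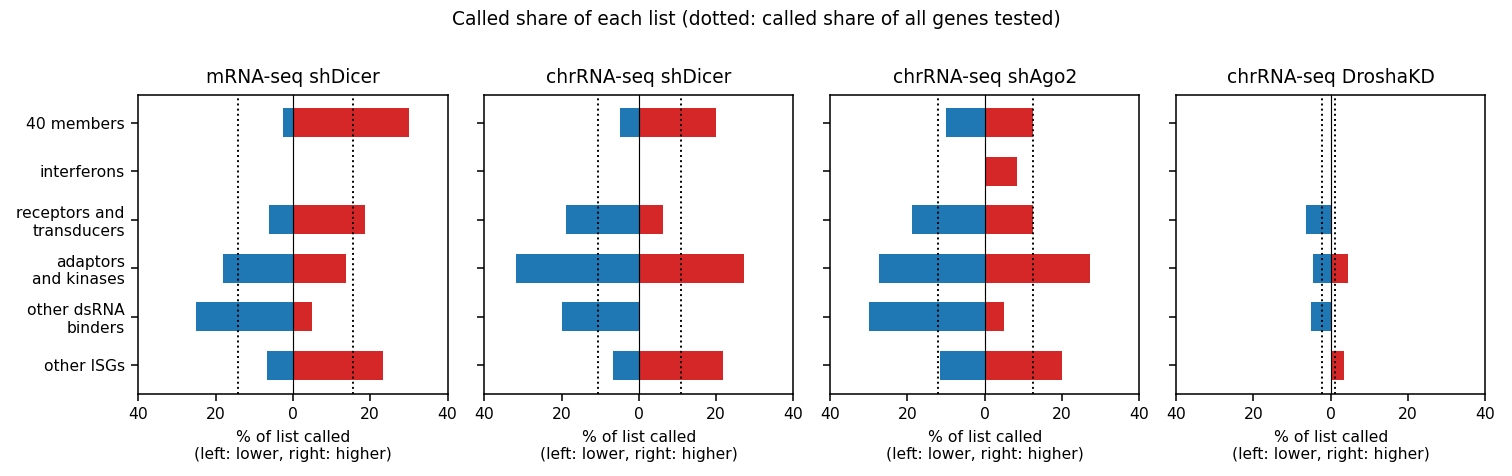
Share of each list called higher (right, red) or lower (left, blue) than wt in 4 comparisons, out of all genes of the list, with dotted lines at the shares of all genes tested. In mRNA-seq 30.0% of the 40 members were called higher beside 15.6% of all genes, and in shAgo2 both shares were 12.5%.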

How the data were processed

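The authors pseudoaligned reads of mRNA-seq (3 wt and 3 shDicer samples) and chrRNA-seq (2 samples each of wt, shDicer, shAgo2 and DroshaKD) to Ensembl transcripts with kallisto, using its strand setting, and deposited estimated counts and TPM per transcript. The labels also name Bowtie, TopHat2 and DESeq2 and the build hg38. The labels call the mRNA-seq libraries polyA RNA whereas the methods describe ribosomal RNA depletion.

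Versions were dropped from transcript names, 193697 of 217082 transcripts (89.2%) were found in GENCODE 44, and the estimated counts were summed into 57087 genes and rounded. These genes held 93.4 to 94.8% of each library. The members and lists were chosen with earlier results of these data known. Genes with low counts were removed with edgeR's filter, leaving 15090 in mRNA-seq and 32874 in chrRNA-seq, libraries were scaled by TMM, and the quasi-likelihood test of edgeR 4.0.16 in R 4.3.3 was fitted to each assay over all its samples. Thresholds on the adjusted p were those of the study, 0.001 for mRNA-seq, 0.005 for shDicer and shAgo2 and 0.05 for DroshaKD, with 0.005 for comparisons between knockdowns and between assays. The test was tried on simulated counts first. Total estimated counts per sample were 10216430 to 21553760, and all intervals and the limit of 3 counts cover counting error only.

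Values in every sample are given for members called with an absolute log2 fold change above 1 and for the 3 members of highest TPM in wt of each assay, and other members by log2 fold change, count or range. From each further list up to 3 called genes with the largest change are named per comparison. IFIT1, ISG15 and other low or uncalled members, and NFKB1, TRAF6, IKBKE, IKBKG, NEFL and NEFM, were described after their values were seen. Alternatives were DESeq2 1.42.0, scaling by library size, no filter, counts scaled from TPM by transcript length, unmatched transcripts kept, a log2 fold change above 1, a replicate block, changes relative to the 50 nearest genes, the 2 groups alone and each sample left out. Protein-coding transcripts alone and crossed DroshaKD numbers were added after the data were seen. Overlap of sequence between genes was counted over 31-base subsequences of GENCODE transcripts. Small RNA samples were not analysed here. A gene that the naming rule selects from a further list is not reported here.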

Additional observations from a re-analysis of the deposited data

Results flagged for a closer look

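For 7 members the change with shDicer differed between mRNA-seq and chrRNA-seq in a test of the difference itself (edgeR, adjusted p under 0.005), each being larger in mRNA-seq. The log2 differences were 2.53 for TLR3 (adjusted p = 5.62e-05), 2.16 for MX1 (adjusted p = 2.40e-04), 1.69 for PARP9 (adjusted p = 1.06e-04), 1.25 for DTX3L (adjusted p = 2.44e-04), 0.97 for HERC5 (adjusted p = 2.73e-04), 0.94 for USP18 (adjusted p = 0.00206) and 0.73 for STAT2 (adjusted p = 0.00321). In mRNA-seq all 3 shDicer samples were above all 3 wt samples for each of the 7. On chromatin the shDicer samples were above both wt samples for TLR3, MX1, PARP9 and HERC5, below them for STAT2 and USP18, and overlapped them for DTX3L. The 7 were selected on these same samples, so the positions describe the difference and are no further support for it. The share of all genes separated in this way was not counted. The share of the count in protein-coding transcripts was 18.1% in mRNA-seq and 1.58% on chromatin for STAT2 and 20% and 6.21% for MX1 in wt, and its part in the difference was not tested for STAT2. For MX1 the protein-coding transcripts alone rose in both assays, by 4.63 and 2.39 on the log2 scale.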

How the results depend on the processing

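Counts of members called are given against those of the report. Calls over all genes are given below for the block settings alone. A moved count therefore cannot be read as particular to the members. In mRNA-seq the 12 higher became 19 with no filter on low counts, and the 1 lower became 2 with no filter, with the replicate block and with DESeq2, and 0 with changes relative to neighbouring genes and with an absolute log2 fold change above 1. In chrRNA-seq the 8 higher with shDicer became 5 with counts scaled from TPM by length, with unmatched transcripts kept, with protein-coding transcripts only and with the replicate block, and 3 with an absolute log2 fold change above 1. The 2 lower became 1 under the same first 4 settings and 0 relative to neighbouring genes and with a log2 fold change above 1. With shAgo2 the 5 higher became 3 and the 4 lower became 0 at a log2 fold change above 1, and the 4 lower became 2 with counts scaled from TPM by length or protein-coding transcripts only and 1 relative to neighbouring genes. With DroshaKD the 0 lower became 2 with no filter and 1 with the 2 groups alone. The thresholds above 1 and the use of fewer transcripts change these counts by construction. The filter does so only for the members it removed, of which ISG15, IFI44 and IFIH1 were gained. IFIT3, OAS3, STAT2 and CMPK2 (higher) and IRF3 (lower) in mRNA-seq were tested with the filter, missed the threshold, and passed it with no filter. STAT2, IRF3 and CMPK2 also passed in other alternatives that kept the filter, whereas IFIT3 and OAS3 did not. With DroshaKD, OAS3 and SAMHD1 were called lower with no filter and also in other alternatives that kept it. The cause was not tested for these or for the other settings. With each sample left out in turn, the counts higher ranged from 8 to 13 in mRNA-seq, 3 to 9 with shDicer and 2 to 6 with shAgo2 on chromatin and 0 to 0 with DroshaKD, and the counts lower from 0 to 2, 1 to 2, 2 to 5 and 0 to 3.

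Of the single-gene results, 157 in all, no called direction reversed under any alternative run. DESeq2 left 154 on the same side of the threshold, scaling by library size 154 and the fits without a sample 1120 of their values, with 58 lost and 16 gained. Same-numbered wt and shDicer samples deviated together in mRNA-seq with correlations of 0.0658, 0.0455 and 0.0812, below 0.1, so the numbers were not taken as a pairing, although every sample correlated best with its own number. With the replicate block 13 members were higher and 2 lower in mRNA-seq, 5 and 1 with shDicer and 5 and 3 with shAgo2 in chrRNA-seq and 0 with DroshaKD. With the DroshaKD numbers crossed, since same-numbered shDicer and DroshaKD samples correlated at −0.131, 9 and 2, 7 and 6, and 0 and 5 members were called on chromatin. Over all genes, the main fit called 2347 higher and 2145 lower in mRNA-seq, and the replicate block 2493 and 2280. On chromatin the main fit called 3630 and 3466 with shDicer, 4098 and 3971 with shAgo2 and 392 and 718 with DroshaKD. The replicate block gave 3085 and 2794, 3559 and 3310, and 137 and 315. Crossed numbers gave 4308 and 4489, 4849 and 4998, and 1149 and 1962. Precision is limited by 2 samples per chromatin group and by 3 counts being 0.139 to 0.294 CPM, which left 12 members untested in mRNA-seq. Of these, 3 were called higher with no filter, ISG15, IFI44 and IFIH1.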
